A study of Mus musculus with 8 samples.

Results

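The genes described here build and pull apart mitotic chromosomes. They are 10: the condensin subunits Smc2, Smc4, Ncapg, Ncaph, Ncapd2 and Ncapg2, the topoisomerase Top2a, the separase gene Espl1, the securin gene Pttg1, and Mki67, which encodes Ki-67. They were taken from Affymetrix Mouse Genome arrays as every probe set whose annotation gives 1 gene symbol only, that symbol being on the list. This found 23 probe sets out of 45037 tested, and all 10 listed genes out of 18193. Where a gene had several probe sets, the one with the highest mean log2 signal over the 8 arrays was its main probe set, and the others are reported beside it.

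Lithium nerves were optic nerves of C57BL/6 mice aged 35 to 45 days, kept for 3 days in organotypic culture with 20 mM lithium chloride. Control nerves were from mice of the same strain and age, kept for 3 days with saline. The labels name 6 nerves for each RNA sample, while the methods of the study name 12 nerves from 6 mice and the strain C57/BL10. There were 4 arrays per group, each of pooled nerves, and nothing states that the 4 samples of a group were separate cultures, so that the p-values below reflect the spread among these samples alone, part of which may be technical. The nerves were cleaned of arachnoid, were cultured with the retina attached, in medium with horse serum, and hold a mixture of glia, vessels and sheath cells, so that fewer dividing cells and less RNA per dividing cell cannot be told apart.

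Condensins are ring-shaped motors that fold each chromatid into a compact rod. Both kinds share the ATPases SMC2 and SMC4. Condensin I adds NCAPD2, NCAPG and NCAPH and reaches the chromosomes once the nuclear envelope has broken down, whereas condensin II adds NCAPD3, NCAPG2 and NCAPH2 and is nuclear throughout the cell cycle. DNA topoisomerase II alpha passes DNA strands through one another to untangle the sister chromatids, separase then cuts the cohesin that still holds them, and securin keeps separase inactive until the anaphase-promoting complex destroys it. Ki-67 coats mitotic chromosomes and keeps them from sticking together. Most of these genes are transcribed in the G2 and M phases, and are known targets of complexes that hold them silent in resting cells through a short promoter element, the cell cycle genes homology region (CHR), often beside CCAAT boxes bound by NF-Y.

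All 10 genes had a lower mean on the lithium arrays than on the control arrays, and lithium and control values did not overlap for 9 of them. Smc2 fell 3.14-fold and Ncapg fell 6.31-fold, and these 2 passed the test, an adjusted p under 0.05 by limma with Benjamini-Hochberg adjustment over all probe sets. The folds of the other 8 genes, like these taken from mean log2 signals, ran from 24.7-fold lower for Mki67 and 12.1-fold lower for Top2a to 1.73-fold lower for Ncapg2, and none of them passed. No gene of the list was higher. Over all genes, 2.05% were called lower and 1.18% higher, and the groups did not overlap, with lithium lower, for 8.92%. The median log2 fold change of the 10 genes, lithium minus control, was -1.34, against -0.00 over all 18193 genes. Of the 23 probe sets, all 23 had a lower mean with lithium, 17 did not overlap between groups and 4 were called lower, against 1.39% of all probe sets. With any 1 array left out 1 to 3 of them were called.

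Promoter sequences show which of these genes carry the letters of the elements named above. RefSeq sequences (GRCm38.p6) from 250 bases before to 50 after the transcription start were matched for 9 of the 10 genes, the exception being Smc4. Both strands were searched for CHR letters (TTTGAA or TTCGAA), for CCAAT, and for E2F site letters (TTTCCCGC or TTTGGCGC). TTCGAA reads the same on both strands and was counted once, and 0 matches overlapped one another. A CHR match was found in 7 of the 9 promoters, against 19.2% of 32851 promoters of the same length, a CCAAT in 6 against 37.4%, and an E2F site match in 3, those of Ncapg, Ncapd2 and Ncapg2, against 1.56%. Both CHR and CCAAT letters stood in 6 of the 9 (Smc2, Ncapg, Ncapd2, Top2a, Espl1 and Mki67), against 7.52% of all. A match is a description of letters and not a site of binding. The promoters shown are those of the pair of genes that passed the test (Smc2 at chr4:52438971-52439270, plus strand, and Ncapg at chr5:45669675-45669974, plus strand), those of the pair with the largest log2 fold changes (Top2a at chr11:99024140-99024439, minus strand, and Mki67 at chr7:135716330-135716629, minus strand), and the window given for Pttg1 (chr11:43425932-43426231, minus strand), which held none of the searched letters. That Pttg1 window lies inside the annotated span of the gene (chr11:43420244-43427463) and not at its 5′ end. The sequence at that end was not searched, so Pttg1 cannot be called a gene without these letters. The Ncapd2 window, on the minus strand, likewise ends inside the span of its gene (chr6:125168007-125192100). Each sequence is written 5′ to 3′ along its gene, with the matches in capitals, where a match on the opposite strand reads as its reverse complement.
Smc2: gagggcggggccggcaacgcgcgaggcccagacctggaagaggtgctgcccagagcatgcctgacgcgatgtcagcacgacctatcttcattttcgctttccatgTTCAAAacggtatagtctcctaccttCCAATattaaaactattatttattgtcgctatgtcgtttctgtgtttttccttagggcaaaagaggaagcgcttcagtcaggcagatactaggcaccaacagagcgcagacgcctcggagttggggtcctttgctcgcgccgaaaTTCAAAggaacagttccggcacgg
Ncapg: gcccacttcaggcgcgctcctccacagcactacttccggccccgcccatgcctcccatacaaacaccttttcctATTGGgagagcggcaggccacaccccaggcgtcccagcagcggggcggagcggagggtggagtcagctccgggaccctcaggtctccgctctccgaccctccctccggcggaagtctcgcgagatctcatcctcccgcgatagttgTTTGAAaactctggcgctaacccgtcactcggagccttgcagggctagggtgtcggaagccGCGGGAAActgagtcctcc
Top2a: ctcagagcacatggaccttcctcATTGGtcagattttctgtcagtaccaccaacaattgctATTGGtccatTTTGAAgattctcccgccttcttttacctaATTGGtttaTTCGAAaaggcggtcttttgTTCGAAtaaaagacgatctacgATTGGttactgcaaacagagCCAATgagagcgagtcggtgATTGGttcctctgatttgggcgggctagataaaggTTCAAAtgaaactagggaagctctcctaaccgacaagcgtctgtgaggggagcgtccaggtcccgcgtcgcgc
Mki67: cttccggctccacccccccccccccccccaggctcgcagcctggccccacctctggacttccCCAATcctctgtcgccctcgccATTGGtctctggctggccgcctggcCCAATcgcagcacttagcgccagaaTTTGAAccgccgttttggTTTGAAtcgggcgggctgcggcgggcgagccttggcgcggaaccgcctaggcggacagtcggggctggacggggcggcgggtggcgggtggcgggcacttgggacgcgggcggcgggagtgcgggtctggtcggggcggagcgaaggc
Pttg1: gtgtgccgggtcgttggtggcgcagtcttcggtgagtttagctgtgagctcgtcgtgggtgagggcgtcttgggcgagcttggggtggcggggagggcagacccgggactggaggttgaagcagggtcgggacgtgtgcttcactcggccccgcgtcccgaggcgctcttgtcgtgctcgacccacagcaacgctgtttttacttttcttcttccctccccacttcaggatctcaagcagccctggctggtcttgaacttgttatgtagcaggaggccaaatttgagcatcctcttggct
The Top2a promoter held 4 CHR matches, the most among the 9, and that of Mki67 held 2. Ncaph, like Pttg1, had no match, which says only that these letters are not in this window.

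Values below are signals made with the MAS5 algorithm, on a linear scale, in the order of arrays 1 to 4 of each group, and log2 fold changes are lithium minus control on signals floored at 1. Smc2, the ATPase common to both condensins, read 54.9, 41.8, 55.4 and 47.2 on the lithium arrays, against 159, 119, 188 and 165 on the control arrays. Every lithium value lay under the lowest control value, and the lithium arrays were close to one another. The means were 49.9 ± 6.53 with lithium and 158 ± 28.7 in control (SD, n = 4 each), a log2 fold change of -1.65 (SE 0.16, limma adjusted p = 0.0140). This was the best separated gene of the list, and it passed with each array left out in turn (adjusted p = 0.0206 to 0.0454). The 4 other Smc2 probe sets, with control means between 6.55 and 87.1, had log2 fold changes of -1.06 to -1.45, and none passed (limma adjusted p = 0.0992 to 0.484). Smc4, the partner ATPase, read 89.2, 117, 149 and 138 on the lithium arrays, against 201, 185, 269 and 298 on the control arrays. These groups did not overlap either, and lithium array 3 and control array 2 were the closest. Smc4 averaged 123 ± 26.3 with lithium and 238 ± 53.9 in control, and its log2 fold change of -0.95 (SE 0.22) did not pass (limma adjusted p = 0.0820). Its other 2 probe sets gave -1.04 and -0.76 on the log2 scale, and did not pass.

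**Figure D1:**
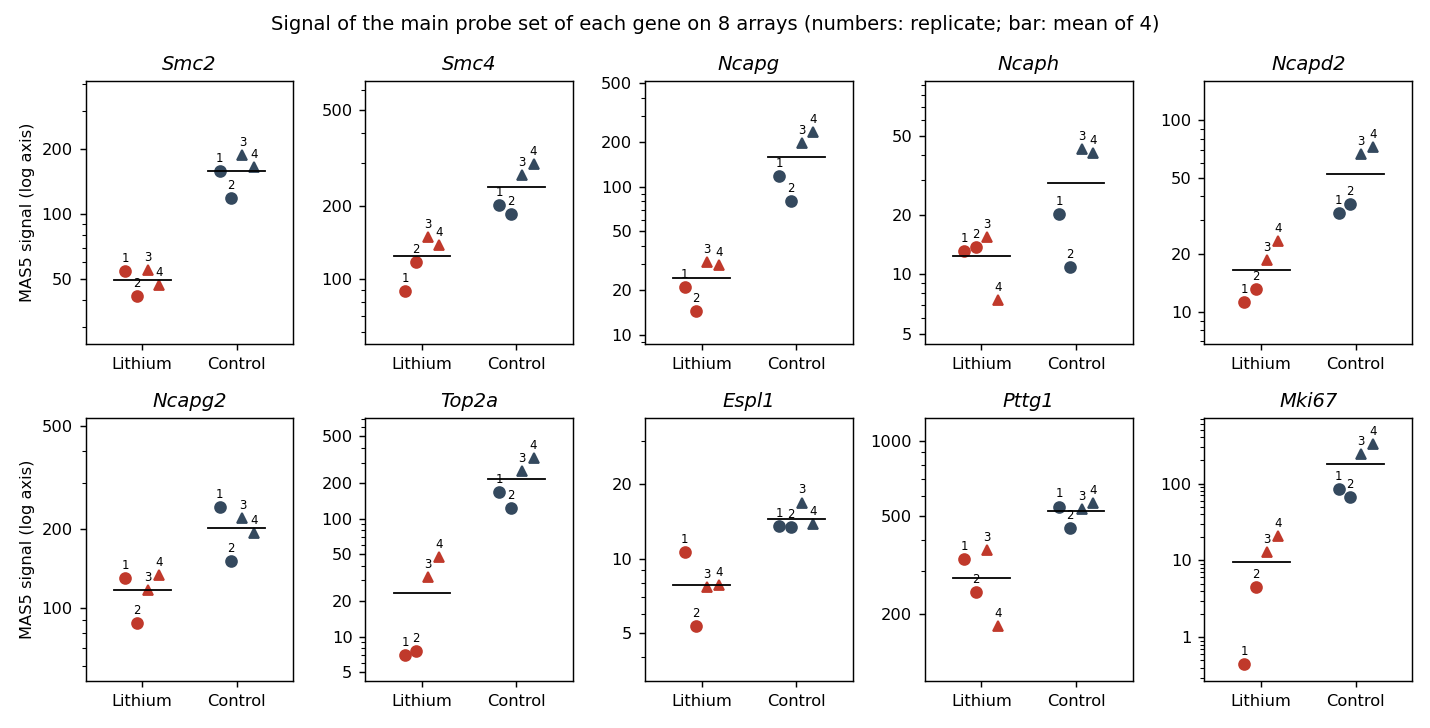
Signal of the main probe set of each of the 10 genes on the 4 lithium arrays (left, red) and the 4 control arrays (right, blue), as MAS5 signal on a log axis that differs between genes, with group means as bars, the array number at each point, circles for arrays 1 and 2 and triangles for arrays 3 and 4. Lithium and control points do not overlap for 9 of the 10 genes, and the exception is Ncaph, where control array 2 (10.9) lies among the lithium arrays.

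The subunits of condensin I differed among themselves in how far they stood from control. Ncapg, a HEAT-repeat subunit that helps the complex hold DNA, read 21.0, 14.4, 31.1 and 29.7 on the lithium arrays, against 118, 80.6, 198 and 235 on the control arrays. The highest lithium value was well under the lowest control value, and both groups read more on arrays 3 and 4 than on arrays 1 and 2. Its means were 24.0 ± 7.82 with lithium and 158 ± 71.0 in control, and its log2 fold change was -2.66 (SE 0.41, limma adjusted p = 0.0321). This call rested on the full set of arrays: it was kept without control array 2 (adjusted p = 0.0406) and lost without any other single array (highest adjusted p = 0.0793). Its second probe set read 1.53, 1.67, 2.08 and 3.36 on the lithium arrays, against 10.7, 13.5, 32.2 and 29.5 on the control arrays, and fell as well (limma adjusted p = 0.0243, and 0.0531 with the replicate block). All 4 of those lithium values lay under the highest signal of the bacterial poly-A control probe sets on the same array, so that this fall is a bound, at least 4.92-fold lower with lithium. Ncapd2, the other HEAT-repeat subunit, read 11.3, 13.2, 18.6 and 23.3 on the lithium arrays, against 32.9, 36.3, 66.2 and 72.6 on the control arrays. Here too the groups did not overlap and arrays 3 and 4 read more in both groups. The log2 fold change of -1.62 (SE 0.35) did not pass (limma adjusted p = 0.0710), but it did with the replicate number as a block (adjusted p = 0.0427), a fit in which 3 of the 10 genes passed (Smc2, Ncapg and Ncapd2), against 0.346% of all genes called lower. The second Ncapd2 probe set did not pass (limma adjusted p = 0.251, and 0.134 with the replicate block). All 4 of its lithium values and 2 of its control values lay under the poly-A control level, so its fall is a bound, at least 1.34-fold lower with lithium.

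Ncaph, the kleisin that closes the condensin I ring, read 13.1, 13.7, 15.3 and 7.38 on the lithium arrays, against 20.2, 10.9, 43.0 and 41.1 on the control arrays. Control array 2 lay under 3 of the 4 lithium arrays, while control arrays 1, 3 and 4 stood above the whole lithium group. The log2 fold change was -1.07, with a 95% interval from -2.23 to 0.10 (limma adjusted p = 0.323). A second Ncaph probe set read 7.93 to 12.2 on the lithium arrays, against 15.5 to 38.9 on the control arrays, without overlap, and did not pass either (log2 fold change -1.33, limma adjusted p = 0.0959). Ncapg2, the condensin II counterpart of Ncapg, read 130, 87.3, 117 and 133 on the lithium arrays, against 244, 151, 221 and 194 on the control arrays. It had the smallest log2 fold change of the 10 in size, and its lithium and control arrays did not overlap. Its means were 117 ± 21.1 with lithium and 203 ± 39.7 in control, a log2 fold change of -0.79 (SE 0.20, limma adjusted p = 0.0949).

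Top2a read 7.01, 7.58, 31.8 and 47.2 on the lithium arrays, against 168, 123, 254 and 328 on the control arrays. No lithium array came near the lowest control array, but lithium arrays 1 and 2 read far less than lithium arrays 3 and 4. The means were 23.4 ± 19.6 with lithium and 218 ± 91.1 in control, and the log2 fold change of -3.60 had an SE of 0.72, so that the gene just missed the threshold (limma adjusted p = 0.0574). It passed where a term for arrays 1 and 2 against 3 and 4, a split that no label gives, was fitted (limma adjusted p = 0.00814). Its 2 other probe sets read at most 10.3 on any array and differed little, with log2 fold changes of -0.52 and -0.05 (limma adjusted p = 0.657 and 0.972), and the mean log2 of all 3 gave -1.39.

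Espl1, which encodes the protease separase, read 10.6, 5.36, 7.68 and 7.82 on the lithium arrays, against 13.5, 13.5, 16.9 and 13.9 on the control arrays. The groups did not overlap, and control arrays 1, 2 and 4 were close to one another, with array 3 above them. The log2 fold change was -0.91 (SE 0.21, limma adjusted p = 0.0773). Pttg1, which encodes securin, read 335, 247, 365 and 180 on the lithium arrays, against 544, 446, 530 and 564 on the control arrays. The values did not overlap, with lithium array 3 the closest to control. The means were 282 ± 84.2 with lithium and 521 ± 51.6 in control, a log2 fold change of -0.94 that did not pass (limma adjusted p = 0.0940). Its 3 probe sets did not read alike. The second read 45.0, 44.8, 75.6 and 54.6 on the lithium arrays, against 157, 101, 198 and 194 on the control arrays, and fell 2.92-fold (limma adjusted p = 0.0406, lost with the replicate block at 0.0607 and kept in 1 of 8 fits with an array left out), whereas the third, at no more than 10.6 on any array, gave -0.23 on the log2 scale (adjusted p = 0.739). The main probe set ends in _s_at, the mark of probes that can match several transcripts.

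Mki67, whose protein marks cells in cycle, read 0.452, 4.47, 13.0 and 20.5 on the lithium arrays, against 86.0, 65.8, 240 and 326 on the control arrays. It had the largest log2 fold change of the 10 and also the largest SE, and control arrays 3 and 4 read far above control arrays 1 and 2. The means were 9.60 ± 8.94 with lithium and 179 ± 125 in control, and the log2 fold change of -4.63 (SE 1.04, 95% interval -7.09 to -2.16) did not pass (limma adjusted p = 0.0768). Lithium array 1 lay under both the floor of 1 and the poly-A control level, and with each array floored at its poly-A control level the log2 fold change was -4.10 and passed (adjusted p = 0.00940).

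**Figure D2:**
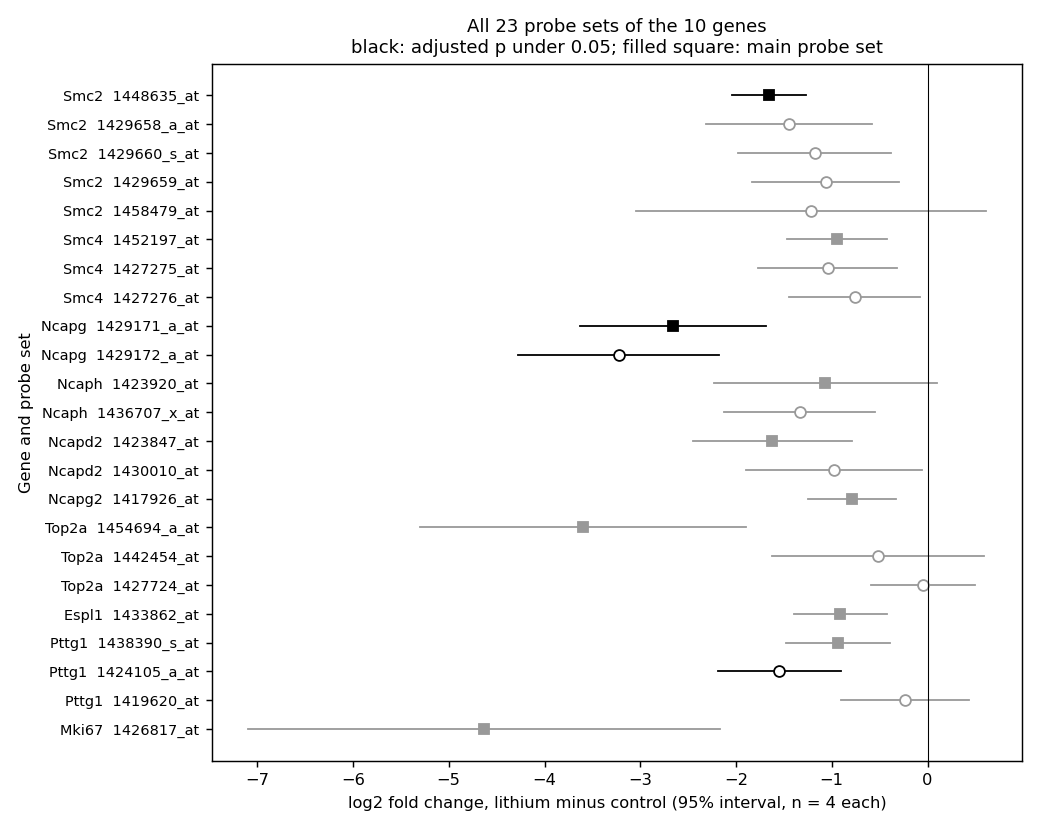
Log2 fold change, lithium minus control, of each of the 23 probe sets with its 95% interval from limma, grouped by gene, in black where the adjusted p is under 0.05 and in grey otherwise, with squares for main probe sets and circles for the others. All 23 estimates lie below 0 and 4 of them passed the test, 1 of Smc2, 2 of Ncapg and 1 of Pttg1.

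The control arrays were not alike for these genes. Control arrays 3 and 4 both read above control arrays 1 and 2 for 8 of the 10 genes, all but Ncapg2 and Pttg1, against 28.7% of all genes. On the lithium arrays the same order held for 5 of the 10 (Smc4, Ncapg, Ncapd2, Top2a and Mki67), against 32.5% of all genes. The labels give only a number for each array, so what sets arrays 3 and 4 apart is not stated. Within arrays 1 and 2, and within arrays 3 and 4, all 10 genes had a lower mean with lithium, with medians of -1.21 and -1.76 on the log2 scale, and with 2 arrays per group none passed within either set. The estimate for Ncaph was the one that moved most, -0.15 within arrays 1 and 2 and -1.98 within arrays 3 and 4. With a term for these sets in the fit, 6 of the 10 passed (Smc2, Smc4, Ncapg, Ncapd2, Top2a and Mki67), against 5.71% of all genes called lower. No label gives these sets, which were seen in the array values themselves, so the calls with this term are no separate support. Lithium was lower than control on all 4 same-numbered arrays for 9 of the 10 genes, against 19.0% of all genes. These are the 9 genes without overlap between groups, for which this order is given by the lack of overlap, so it is no separate result.

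Calls for these genes moved with the processing, and directions did not. Leaving out the settings that test only probe sets above a level, which most of these genes reach only through the control arrays, Smc2 passed in 17 of 20 alternative settings and Ncapg in 11, while Ncaph and Ncapg2 passed in 0. The methods of the study ask for a 2-fold change and for a level of 200, read here as the mean signal of the higher group, besides the adjusted p. With all 3 limits 0 of the 10 genes passed, against 0.242% of all genes called lower, since Smc2 and Ncapg did not reach the level, and Top2a, which reached it with a fold of over 2, missed the adjusted p.

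**Figure D3:**
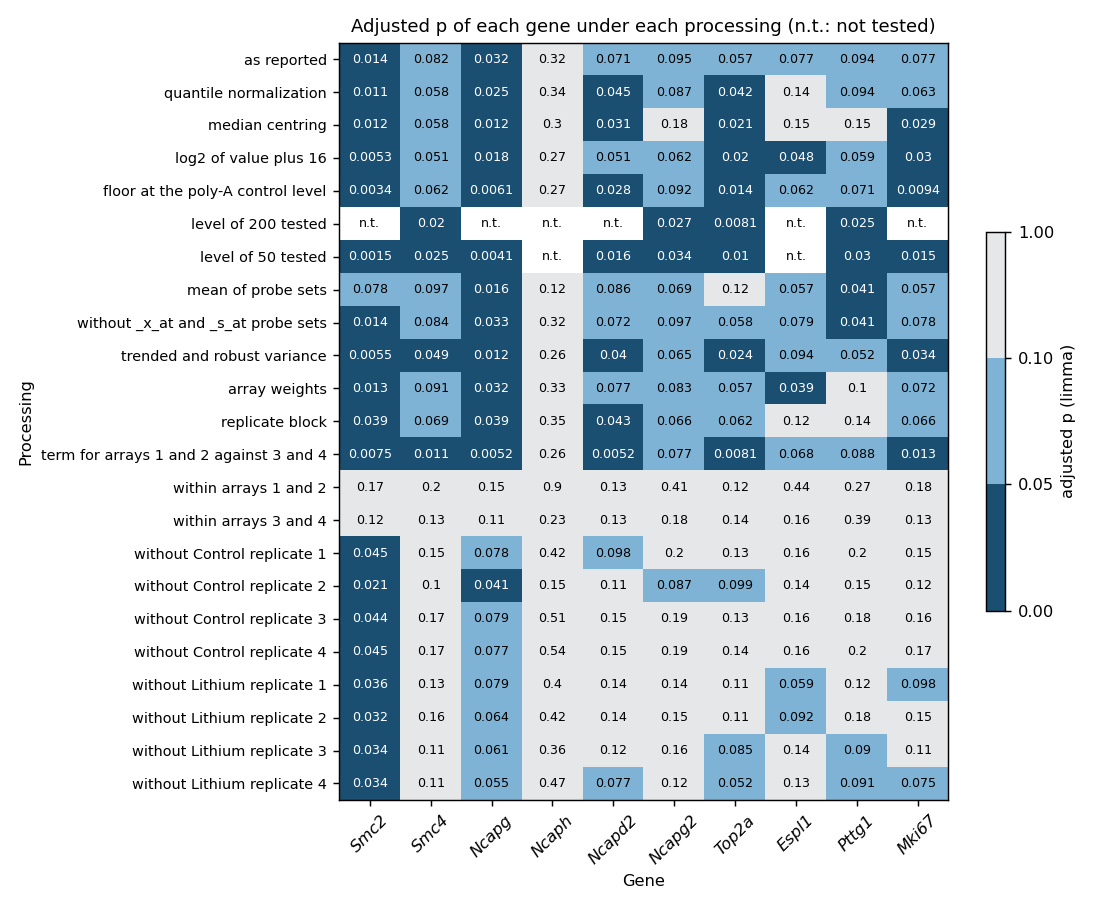
Grid of the limma adjusted p of each gene (columns) as reported and under each processing alternative (from top to bottom), dark blue under 0.05, light blue from 0.05 to 0.10, grey above, and white where the gene was not tested. Apart from the level filters, which most of these genes pass only through the control arrays, Smc2 is dark in 17 of 20 alternatives, Ncaph and Ncapg2 are dark in 0, and the other 7 genes have values on both sides of 0.05.

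Genes of the same protein families were set against the members on the same arrays, to ask whether the difference with lithium was shared by the related gene. Levels of different probe sets cannot be compared, so that only the change in their ratio is read here. For 5 of the 6 pairs the ratio differed between lithium and control arrays without overlap (two-sided exact permutation test over 70 splits, p = 0.0286, the smallest it can give, adjusted over the 6 pairs 0.0343). The member of each of these 5 pairs was already without overlap, so beside a related gene that changed little the ratio separates too. How often ratios of other gene pairs separate was not counted. The adjustment covers the 6 pairs only, and Top2a, Smc4 and Ncapd2 did not pass over all probe sets. Top2a against Top2b, the isoform that non-dividing cells also express, averaged -3.46 ± 1.30 on the lithium arrays and 0.20 ± 0.58 on the control arrays (log2 ratio, SD, n = 4 each). Top2b itself averaged 186 ± 25.8 with lithium and 177 ± 8.23 in control (limma adjusted p = 0.817). Smc2 against Smc3, an ATPase of cohesin, averaged -0.68 ± 0.49 with lithium and 0.98 ± 0.26 in control, where Smc3 read 81.1 ± 19.2 with lithium and 78.8 ± 3.18 in control. Smc4 against Smc1a, the other cohesin ATPase, averaged -1.11 ± 0.26 with lithium and -0.34 ± 0.07 in control. Both condensin ATPases were thus lower relative to the cohesin ATPase set beside them, but the Smc4 pair missed the threshold without any 1 control array, and the Smc2 pair without control array 3 or 4 (exact permutation p = 0.0571 each). With 1 array left out the groups differ in size, so p can lie above its smallest value although the ratios still do not overlap.

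Within condensin, the condensin I subunit stood lower against its condensin II counterpart for 2 of the 3 pairs. Ncapg against Ncapg2 averaged -2.33 ± 0.35 on the lithium arrays and -0.46 ± 0.63 on the control arrays. Ncapd2 against Ncapd3 averaged -2.17 ± 0.13 with lithium and -1.21 ± 0.47 in control, and this pair missed the threshold without any 1 of the 4 lithium arrays (exact permutation p = 0.0571) and with log2 of the value plus 16 (exact permutation p = 0.0857). Without 1 lithium array its ratios still did not overlap between groups. The ratio of Ncaph to Ncaph2 overlapped between groups, with a difference of -0.51 on the log2 scale and a 95% interval from -1.89 to 0.87 (exact permutation p = 0.429). Ncapd3 averaged 75.4 ± 26.7 with lithium and 114 ± 9.80 in control, Ncaph2 219 ± 55.1 with lithium and 317 ± 39.5 in control, and neither passed (limma adjusted p = 0.243 and 0.190). The Ncapd3 values did not overlap between groups, with lithium lower.

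**Figure D4:**
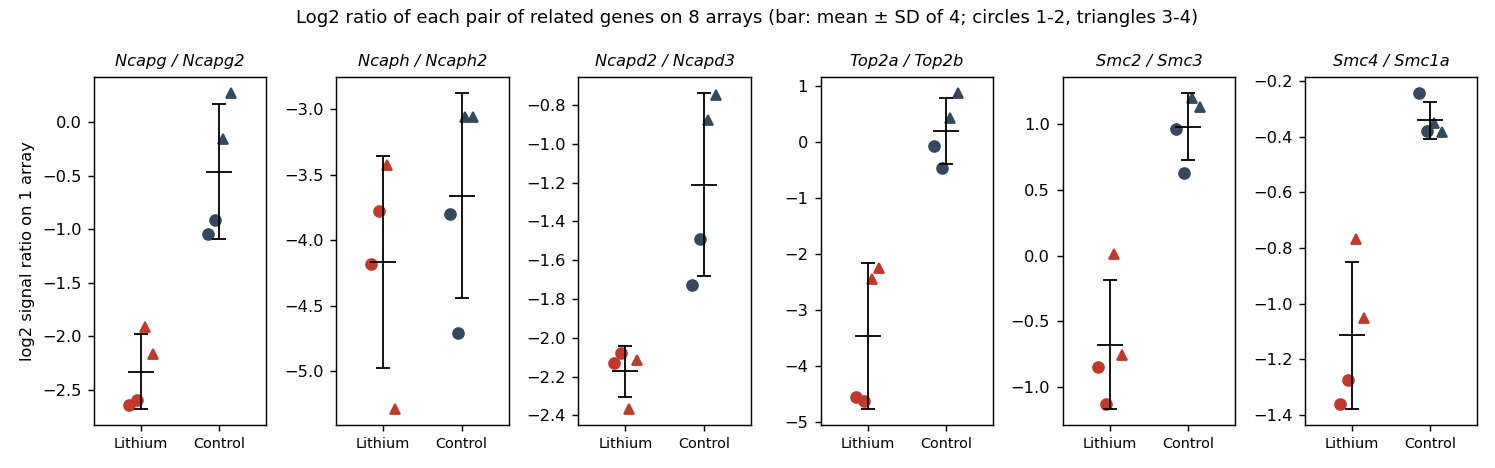
Log2 ratio of a member to its related gene on each lithium array (left, red) and control array (right, blue) for the 6 pairs, with the mean and SD of 4 arrays as bars, circles for arrays 1 and 2, triangles for arrays 3 and 4, and an axis range of its own for each pair. The ratios do not overlap between groups for 5 pairs, and they do for Ncaph against Ncaph2.

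Of the other genes of chromosome condensation, cohesion and anaphase, few passed and none was called higher. Mean log2 signals were lower with lithium for 7 of 9 other condensation genes, 6 of 14 cohesin genes and 16 of 20 cohesion protection and anaphase genes. Some genes that did not pass fell without overlap between groups. Among them, named after their values were seen, were Cdk1 (19.6 with lithium and 170 in control) and Sgo1 (7.42 with lithium and 57.2 in control). In the list of other condensation genes 1 of 9 was lower and 8 did not pass, with a median log2 fold change of -0.66. The gene was Kif22, a chromosome-arm kinesin, at 30.2 ± 1.11 with lithium and 104 ± 31.9 in control (limma adjusted p = 0.0183, and 0.0663 with the replicate block), and 0 of the 9 passed without lithium array 1, control array 1 or control array 4. Of 14 cohesin genes 1 was lower, with a median of 0.04. It was Esco2, the acetyltransferase that makes cohesion in S phase, whose lithium values all lay under the poly-A control level, at least 4.94-fold lower with lithium (limma adjusted p = 0.00688, and 0.0477 with the replicate block). The core ring genes Smc1a and Smc3 did not pass (adjusted p = 0.699 and 1).

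Among genes of cohesion protection and anaphase onset, 5 of the 20 measured were lower and 15 did not pass, with a median of -0.23. Ube2c, which encodes the ubiquitin-conjugating enzyme of the anaphase-promoting complex, averaged 10.4 ± 4.49 with lithium and 130 ± 26.1 in control (limma adjusted p = 0.0133, and 0.0477 with the replicate block). Sgo2a, a shugoshin that shields centromeric cohesin, averaged 10.9 ± 1.67 with lithium and 52.8 ± 13.9 in control (limma adjusted p = 0.0139, and 0.0394 with the replicate block). The other 3, chosen after their values were seen, were Cdc20, an activator of the anaphase-promoting complex (log2 fold change -3.06), Plk1, a mitotic kinase (-2.89), and Anapc11, the RING subunit of that complex (-0.50), and each lost its call with the replicate block. With any 1 array left out 2 to 4 of the 20 were called. Of 22 genes that control G2 and M transcription, 2 were lower, with a median of -0.16. These were the E2F repressors E2f7, at 3.81 ± 2.18 with lithium and 26.4 ± 6.33 in control (limma adjusted p = 0.0285), and E2f8, at 5.51 ± 3.07 with lithium and 44.2 ± 13.6 in control (adjusted p = 0.0377), and both missed the threshold with the replicate block (adjusted p = 0.0575 and 0.0650) and in most fits with 1 array left out, of which E2f7 passed in 1 and E2f8 in 2 of the 8. Foxm1, the activator of many G2 and M genes, named after its values were seen, averaged 8.39 with lithium and 21.6 in control and did not pass (limma adjusted p = 0.103).

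**Figure D5:**
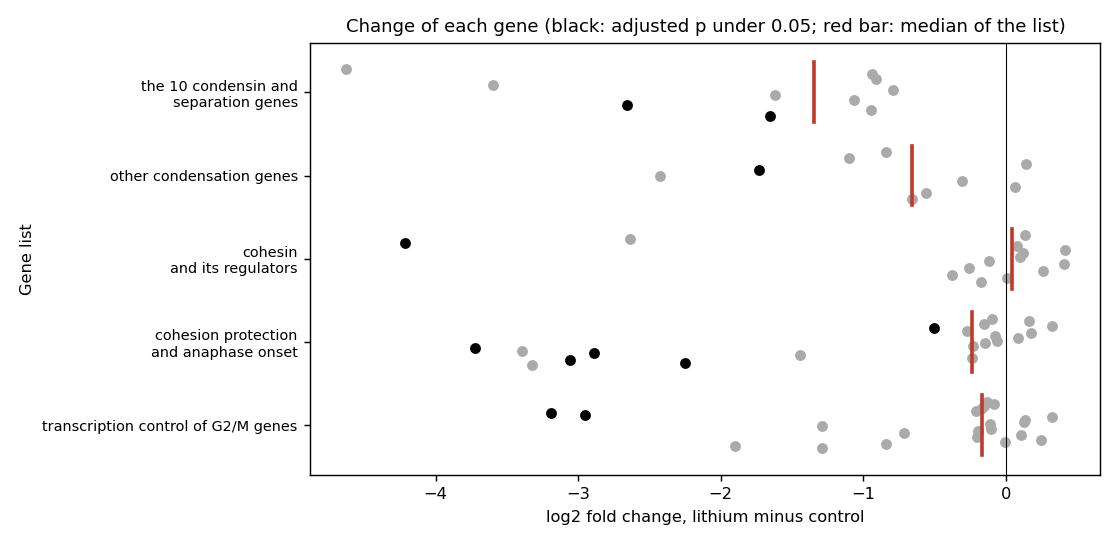
Log2 fold change, lithium minus control, of each gene in the member list and in the 4 lists of related genes, black where the adjusted p is under 0.05 and grey otherwise, with the list median as a red bar (height within a list carries no meaning). The member median of -1.34 lies below those of the other condensation genes (-0.66), the cohesion protection and anaphase genes (-0.23), the G2/M transcription genes (-0.16) and the cohesin genes (0.04). In that order, values in these lists ran from -2.43 to 0.14, -3.72 to 0.33, -3.19 to 0.33 and -4.22 to 0.41. Each list thus holds falls beyond the member median, and a fall of that size was not particular to the members.

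Genes outside the list with the array profile most like that of the members were sought among 9282 genes with a control mean of at least 50, as the root mean square distance over 8 arrays from the median profile, each gene centred on its own mean log2 signal. The 5 nearest were Tacc3 (0.168), Mcm7, of the replicative helicase (0.181), Gpx7, an endoplasmic reticulum peroxidase (0.182), Cip2a, a phosphatase inhibitor (0.183) and Rasl11a (0.186). Tacc3, a spindle microtubule protein, averaged 53.2 ± 9.27 with lithium and 171 ± 46.1 in control, given as a description, since the choice of the gene fixes its direction. By the same measure Smc2 was the closest of the 10 members to their median profile (0.200), and Top2a (1.28) and Mki67 (1.96), with the largest log2 fold changes, were the farthest.

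Other features of the arrays moved with the groups. The summed signal of the 10 members ran from 552 to 803 on the lithium arrays and from 1232 to 2237 on the control arrays. Summed over 8 fibroblast markers it ran from 873 to 2533 with lithium and from 3559 to 5550 in control (2 called lower, median log2 fold change -1.56, with Pdgfra also among the oligodendrocyte precursor markers), and over 7 neutrophil markers from 49.8 to 84.1 with lithium and from 393 to 609 in control (3 called lower, median -1.81, with Ngp, Mpo and Elane under the poly-A control level on all 8 arrays). Endothelial markers (7 genes) summed to 1571 to 1650 with lithium and 1862 to 2131 in control, with 1 called lower and a median of -0.28. Most of that sum was Slc2a1 (1390 with lithium and 1506 in control), and Flt1 averaged 89.6 with lithium and 303 in control. Of 9 retinal neuron markers, which summed to 127 to 182 with lithium and 199 to 256 in control, 0 passed and the median was -0.00. The gap between the retinal sums rested on Thy1 (46.6 ± 3.27 with lithium and 113 ± 47.0 in control), without which they overlap. The sums overlapped for the other classes, with these ranges: 8 astrocyte markers (6379 to 7600 with lithium and 6873 to 7245 in control, 0 passed), 7 oligodendrocyte markers (10597 to 13766 with lithium and 10665 to 11747 in control, 0 passed), 6 oligodendrocyte precursor markers (1480 to 1953 with lithium and 1797 to 2181 in control, 0 passed), 9 microglial markers (2473 to 3306 with lithium and 2786 to 3872 in control, 0 passed) and 7 pericyte markers (965 to 1969 with lithium and 1081 to 1802 in control, 1 called lower). Most of the pericyte sum was Tagln, which averaged 1210 with lithium and 992 in control. Mean log2 signals were lower with lithium for 6 of the 7 pericyte markers, with a median log2 fold change of -0.86. The 1 called, Pdgfrb, averaged 45.5 with lithium and 197 in control. With the replicate block 0 fibroblast, endothelial and pericyte markers and 1 neutrophil marker were called lower. The part of these cell types in the lower signals of the members was not tested. The median signal of an array was 12.3 to 16.5 with lithium and 14.8 to 17.5 in control.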

How the data were processed

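RNA of 8 optic nerve samples, 4 lithium and 4 control, was measured on Affymetrix Mouse Genome arrays. The authors deposited MAS5 signal intensity values on a linear scale, 1 per probe set and array, made with GeneChip Operating Software and Agilent GeneSpring. The baseline transformation named in the methods is not seen in the deposited intensities. Of 45101 probe sets 64 Affymetrix controls were left out. Of the rest 34945 had 1 gene symbol, and of all probe sets 932 had several and 9211 none, from the platform annotation, with 0 symbols updated through RefSeq. Columns without a sample numbered 0.

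Intensities were floored at 1 (14.5% of values), taken to log2, and the difference of lithium minus control was fitted in R 4.3.3 by limma 3.58.1 (functions lmFit and eBayes). No block was used, as the methods name none. Benjamini-Hochberg adjustment ran over 45037 probe sets. At an unadjusted p under 0.05 there were 8087 probe sets, and 9597 with the replicate block. Means and SDs are of linear signals. Folds other than bounds are from mean log2 signals, so they differ from ratios of these means. A group whose values all lay under the highest of 27 poly-A control probe sets on the same array is given as a bound. That highest signal was 3.56 to 4.33 on the lithium arrays and 2.13 to 5.64 on the control arrays. The log2 ratio of the Gapdh 3′ to 5′ probe sets averaged 0.43 ± 0.07 with lithium and 0.37 ± 0.02 in control. The number of arrays limits the precision. On simulated data of 45037 probe sets for this comparison, with normal noise, 47 of 50 probe sets lowered by 3 on the log2 scale and 26 of 50 lowered by 1.5 were recovered, with 12 of 161 calls wrong. The lowered probe sets were drawn only from those above a low signal limit. These rates therefore do not cover genes of low signal such as Espl1 and Ncaph.

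After subtraction of group means, a lithium array and the control array of its number correlated at 0.130 to 0.197 over probe sets (mean 0.160 of 4 pairs, limit 0.1). The replicate numbers were read as pairs for the block, with no label that says so. Other arrays within 1 and 2 or within 3 and 4 correlated at 0.0706 to 0.131 (mean 0.112, also past the limit). Arrays across these sets correlated at a mean of -0.136. The limit thus does not tell pairing by number from the split of arrays 1 and 2 against 3 and 4. Results with the replicate block rest on an assumed pairing, and those with the array-set term on a split seen in the values and given by no label.

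The members and all gene and marker lists were chosen with earlier results of these data known, so that no list was tested as a set. Named are all members, per list the 2 genes of lowest adjusted p in each direction where any passed, the related genes of the pairs and the 5 genes of nearest profile. Ccnb1 and Ly6c1 were not matched to a probe set of 1 symbol and were not analysed here. Alternatives were quantile normalization, median centring, log2 of the value plus 16, a poly-A floor, levels of 200 and 50, other rules for probe sets, a trended variance, array weights, the replicate block, the array sets and each array left out in turn. How the count past all limits of the methods moves was added after seeing the data.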

Additional observations from a re-analysis of the deposited data

Results flagged for a closer look

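In the control group the main probe set of Espl1, the separase gene, had 1 array apart from the rest: control array 3 read 16.9, against 13.5, 13.5 and 13.9 on the other control arrays. Its gap to the nearest of the others was 0.888 of the range of the group, past the 95% limit of Dixon's ratio for 4 samples. Of 46 sets of 4 arrays tested over the 23 probe sets, this was the 1 past the limit, and chance alone passes about 1 in 20. The lithium arrays of Espl1 read 5.36 to 10.6, under all 4 control arrays, whether or not control array 3 is counted.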

How the results depend on the processing

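Every member tested kept a lower mean with lithium under every alternative run, and calls moved. All 10 were tested except at a level of 200, with 4 tested, and at a level of 50, with 8. Of the 10 members 2 passed as reported. The count was 4 with quantile normalization (2.64% of all genes called lower, against 2.05% as reported), 5 each with median centring (2.36%), log2 of the value plus 16 (3.47%) and the poly-A floor (3.01%), and 6 each with a trended and robust variance (3.00%) and with a term that parts arrays 1 and 2 from the other two (5.71%), so that calls rose over all genes too. Tested only at a level of 200 or of 50 in the higher group, 4 of 4 and 8 of 8 members were called (5.21% and 6.39% of genes), but 3 of the 4 and 5 of the 8 reached the level only through the control arrays, so that these counts, and others at a level, are no support. It was 0 within arrays 1 and 2 and 0 within arrays 3 and 4, where each group has 2 arrays, and 1 to 2 with each array left out. Of the 23 probe sets 4 passed as reported, 7 with log2 of the value plus 16, 8 each with median centring, the poly-A floor and the trended variance, 11 at a level of 50, 14 with the term for array sets, 0 within each array set and 1 to 3 with each array left out. Past all limits of the methods the count of 0 became 1 with quantile normalization, median centring, log2 of the value plus 16, the poly-A floor, levels of 200 and 50, the trended variance and the term for array sets, and that gene was Top2a in each. The median log2 fold change stayed between -1.76 and -0.96 where all 10 members were tested. It was -0.94 over the 4 members tested at a level of 200.

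With the replicate block 3 of the 10 members passed, Ncapd2 joining Smc2 and Ncapg, and the calls of Kif22, Cdc20, Plk1, Anapc11, E2f7 and E2f8 were lost, as were those of the second probe sets of Ncapg and Pttg1 and of 6 of the 7 marker genes called, while no other call changed among the members' main probe sets and the named genes of the related lists. For the ratios to related genes the block leaves a sign test of 4 pairs, whose smallest exact p is 0.125, so that the differences of -1.87 (Ncapg), -0.96 (Ncapd2), -3.66 (Top2a), -1.66 (Smc2) and -0.77 (Smc4) could not pass. The Ncapd2 ratio missed the threshold with log2 of the value plus 16 (-0.48), with the mean of probe sets (-0.78) and without _x_at and _s_at probe sets (-1.41), and was -0.49 within arrays 1 and 2 and -1.43 within arrays 3 and 4. The Smc4 ratio was -1.01 and -0.54 in those sets, and that of Ncaph 0.28 within arrays 1 and 2. With each array left out the differences ran from -1.13 to -0.81 for Ncapd2, from -1.89 to -1.51 for Smc2 and from -0.89 to -0.69 for Smc4. Ratio tests have no version with array weights, a trended variance or the array-set term, and at a level of 200 only the Smc4 ratio was measured. The causes of these moves were not tested. Values near the poly-A control level, as for Mki67 and Top2a on lithium arrays 1 and 2, limit how large a fall can be measured.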
